A study of Mus musculus with 36 samples.

Results

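Axon guidance ligands and receptors were followed by gene name through polysome-fractionated RNA of the embryonic mouse cortex. The set held every semaphorin of classes 3 to 7, plexin, neuropilin, Slit, Robo, netrin, Unc5, Eph receptor and ephrin matched by name, and Dcc. It came to 69 of the 55487 genes in the count table, 35 ligands and 34 receptors. Polysome fractionation sorts RNAs by how many ribosomes they carry: on a sucrose gradient, RNAs with several ribosomes (polysome) sediment further than RNAs with a single one (monosome). RNA was sequenced from both and from the unspun lysate (input), in female cortex at E14.5, with the cortices of 2 embryos pooled per sample.

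The 36 libraries formed 12 groups of 3, from the LoF and T532M crosses. LoF conditional heterozygotes (cHet) had the genotype Emx1-Cre/+;Ddx3x lox/+, and LoF controls had Ddx3x lox/+ without Cre. T532M cHet had the genotype Emx1-Cre/+;Ddx3x-T532M lox/+, and T532M controls had Emx1-Cre/+ without a lox allele. Thus in the LoF cross Cre was in the cHet only, in the T532M cross in both genotypes, and each cross had its own controls. Emx1-Cre acts in the dorsal cortical lineage, so interneurons, vessels, microglia and meninges in a pool keep their Ddx3x alleles. Ddx3x encodes an X-linked RNA helicase that helps ribosomes scan the 5′ ends of mRNAs. The gradient fractions combined for the monosome and for the polysome libraries are not stated in the labels.

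Guidance cues steer growing axons and migrating neurons. Class 3 semaphorins, Slits and most netrins are secreted. Semaphorins of the other classes here and the ephrins are held on membranes, ephrin-As by a lipid anchor and ephrin-Bs by a transmembrane segment. Semaphorins signal through plexins, with neuropilins as co-receptors for class 3, Slits through Robos, netrins through Dcc and Unc5 receptors, and ephrins through Eph receptor tyrosine kinases. In the developing cortex these systems guide callosal, corticofugal and thalamic axons and the migration of young neurons.

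Libraries held 36999365 to 57935512 read pairs. Levels are given in CPM (read pairs per 1000000, with library sizes scaled by TMM), and tests are edgeR quasi-likelihood tests adjusted over all genes by Benjamini-Hochberg, with adjusted p under 0.05 as the threshold. Replicates are separate pools of embryos, and whether any of them came from the same litter is not stated in the labels. The dorsal cortical markers summed to 1653 to 2310 CPM in input. Other markers varied between pools. The choroid plexus and hem list, which includes the choroid plexus gene Ttr, summed to between 10.9 and 251.5 CPM in input, with 6 of its 10 genes at 0 in at least 1 library. The meninges list summed to 14.3 to 272.3 CPM, with Igf2 listed at 0 in all libraries and the other 9 detected in every library. Input libraries also differed in base composition. The median deviation of GC-poor mRNAs minus that of GC-rich mRNAs (a log2 index, lowest and highest 10% by GC) ran from -0.72 in LoF cHet pool 1 to 0.58 in LoF control pool 1.

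The targeted gene was measured first. Ddx3x averaged 90.97 ± 27.4 CPM in LoF cHet input and 114.7 ± 36.2 CPM in control input (SD, n = 3), and in the polysome 1929 ± 295 and 2404 ± 272 CPM in the same order. In monosomes it averaged 210.3 ± 40 CPM in LoF cHet and 303 ± 35.5 CPM in LoF control (-0.53, unadjusted p = 0.0262, adjusted p = 1, edgeR), and 301.5 ± 38.1 CPM in T532M cHet and 310.5 ± 31 CPM in T532M control (-0.04). In the T532M cross it averaged 200.1 ± 34.5 CPM in cHet and 101.9 ± 48 CPM in control input, with 5079 ± 886 CPM in cHet and 2927 ± 608 CPM in control polysomes. Of its 6 genotype comparisons within a fraction none passed (smallest adjusted p = 0.264, edgeR). Counts cover the whole gene span, so reads from outside the lox-flanked part cannot check the deletion.

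Almost all of the guidance genes were expressed. After the filter on low counts 67 members were tested in the LoF cross and 66 in the T532M cross. Ntn5, a netrin, had 74 read pairs over all 36 libraries and Plxnb3, a plexin, 75, and neither was tested. Epha1, an Eph receptor with 212 read pairs, passed the filter in the LoF cross only. Gene spans ran from 4.6 kb (Efna4) to 1097.4 kb (Dcc), and read pairs were counted over whole spans, introns included. Another gene model overlapped on the same strand for 23 members, mostly microRNAs or unnamed transcripts inside introns, and in the case of Ntn3 the coding gene Tbc1d24. Counts of these members, Ntn3 above all, are therefore uncertain.

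Per length of mRNA, Efnb1 and Efnb2 led in input and Eph receptors and plexins in the polysome. Counts over whole spans, introns included, were divided by the length of the spliced mRNA. The order of genes with unlike spans, and shifts in rank between fractions, are therefore uncertain. Mean level per kb of mRNA in the 6 control polysome libraries was 275 CPM per kb for Epha5 (range 230 to 334), 273 for Epha4 (208 to 341) and 253 for Plxna2 (202 to 338). These ranges overlap, so the order of the 3 is not resolved. Plxnb2 followed at 159 CPM per kb, Dcc at 143, Robo2 at 132, Plxna4 at 126 and Nrp1 at 124. In control input the first places went to Efnb1, at 74.2 CPM per kb (63.4 to 80.1), and Efnb2, at 63.5 (54.1 to 70.2). Plxnb2 (37.8 CPM per kb), Ephb2 (36.9) and Efna2 (30.5) came next, and the ranges of Plxnb2 and Ephb2 overlap. Dcc ranked 5 of 69 in the polysome and 45 in input, and Epha5 ranked 1 and 37. Efna4 went the other way, at rank 51 in the polysome and 12 in input, as did Efna3 at 53 and 16 and Efna2 at 39 and 5.

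Guidance mRNAs made up a larger share of polysome libraries than of monosome or input libraries. CPM gives the composition of a library, not how the molecules of a gene divide between fractions. Together the 69 members took a median of 18990 CPM in polysome libraries (range 16310 to 23770, n = 12), against 3809 CPM in monosome (3431 to 4428) and 3432 CPM in input libraries (3149 to 3735). In the polysome against the monosome of LoF controls, 53 of 67 members were higher and 7 lower, with a median log2 fold change of 2.17. Of all 18556 genes tested 36.4% were higher and 44.9% lower, with a median of -0.31. In T532M controls 52 of 66 members were higher and 6 lower (median 2.25), where 36% of all genes were higher and 43.9% lower. Against input, 50 members were higher and 8 lower in LoF control polysomes (median 1.67, with 36.5% and 42.8% of all genes). In T532M controls it was again 50 and 8 (median 1.75, with 36.6% and 42.4%).

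The direction depends in part on scaling. With libraries scaled by total read pairs the median of all genes moved by -0.81 to -0.98 on the log2 scale. Members then numbered 45 higher and 13 lower against monosome in LoF controls, and 41 and 13 in T532M controls. Against input they numbered 40 and 18 in LoF controls and 38 and 18 in T532M controls. TMM scaling therefore puts 86.2 to 89.7% of the called members on the higher side, and total scaling 67.9 to 77.6%. Changes below are relative to the TMM scale, and some members turn negative under total scaling. Against monosome these were Efnb2, Sema3f, Sema6c and Unc5d in LoF controls, and Efnb2, Epha8, Ntn3, Sema3b, Sema4a, Sema6b, Sema6c and Unc5d in T532M controls. In both crosses input, monosome and polysome come from the same lysate, so the fraction libraries of a pool are not independent. With the lysate as a block 54 members were higher and 7 lower against monosome in LoF controls, and 52 and 7 in T532M controls.

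**Figure D1:**
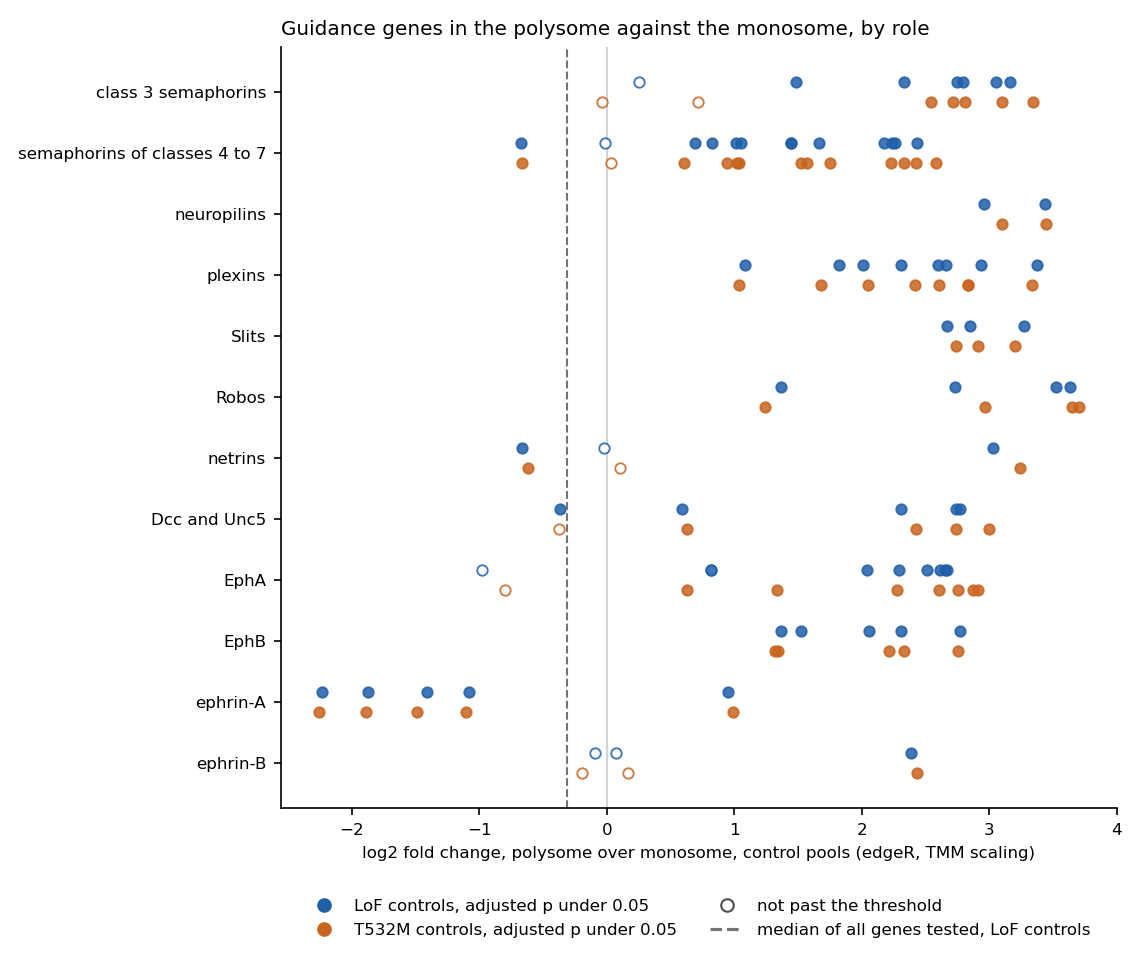
Each point is a guidance gene, placed by its log2 fold change in the polysome over the monosome of control pools (x axis, edgeR with TMM scaling) and its role (rows), for LoF controls (blue) and T532M controls (orange); open points did not pass the threshold. Slits, Robos, neuropilins and plexins lie to the right in both crosses, 4 of 5 ephrin-As lie to the left, and the dashed line is the median of all genes tested in LoF controls, -0.31.

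Most class 3 semaphorins and both of their co-receptors were higher in the polysome. Sema3a, a class 3 semaphorin that repels cortical axons (chromosome 5, 13125414 to 13602565, plus strand of GRCm38), had 151, 146 and 178 CPM in LoF control polysomes. It had 26.71, 38.95 and 28.52 CPM in the monosomes and 8.15, 4.99 and 4.53 CPM in the inputs of the same pools, and no values of the 3 fractions overlap. The log2 fold change of polysome over monosome was 2.33 (SE 0.212) in LoF and 2.54 (SE 0.281) in T532M controls. In LoF controls 6 of 7 class 3 semaphorins were higher in the polysome, and in T532M controls 5 of 7. Sema3d had the largest value in LoF controls, 3.16 (SE 0.35), at a mean of only 8.03 CPM in polysomes, and Sema3g the largest in T532M controls, 3.34 (SE 0.219). Sema3f, which signals through Nrp2, did not pass, at 0.25 in LoF and -0.04 in T532M controls. The 2 neuropilins rose in both crosses, Nrp2 with 3.44 and 3.44 and Nrp1 with 2.96 and 3.10 for LoF and T532M controls. Nrp2 had 382, 322 and 355 CPM in LoF control polysomes against 29.54, 37.99 and 30.24 CPM in monosomes.

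Membrane semaphorins spread more widely. Of the 13 genes of classes 4 to 7, 11 were higher and 1 lower in the polysome against the monosome in each cross. Sema5a, a transmembrane semaphorin with thrombospondin repeats, had the largest fold change, 2.43 in LoF and 2.58 in T532M controls. It had 638, 663 and 704 CPM in LoF control polysomes against 108, 145 and 118 CPM in monosomes. Sema4g was the only semaphorin lower in the polysome. It had 42.3, 48.7 and 41.7 CPM in LoF control polysomes against 75.2, 69.4 and 67.4 CPM in monosomes, without overlap. Its log2 fold change was -0.67 in both crosses (adjusted p = 3.73e-06 in LoF and 0.00104 in T532M controls, edgeR). Sema6b lay at -0.01 and 0.03 for LoF and T532M controls and did not pass, and the other 10 lay between 0.60 and 2.43.

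All 8 plexins tested rose in the polysome in both crosses. Plxnb2, a receptor for class 4 semaphorins, had 1072, 917 and 1095 CPM in LoF control polysomes against 93.9, 104.6 and 97.97 CPM in monosomes, a log2 fold change of 3.38 (SE 0.125). Plxna2, the member with most read pairs (1544608 over all libraries), averaged 2483 CPM in LoF control polysomes against 501.5 CPM in monosomes. Its fold change was 2.31 in LoF and 2.42 in T532M controls. Plxnd1, a receptor for Sema3e also known from blood vessels, had the smallest value, 1.08 (SE 0.119) and 1.03 (SE 0.152) for LoF and T532M controls.

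Slits and Robos were all higher in the polysome, 3 of 3 and 4 of 4 in each cross. Robo1, a Slit receptor that spans 737.8 kb on chromosome 16 (72308306 to 73046095, plus strand), had 604, 633 and 652 CPM in LoF control polysomes. Monosomes of the same pools had 46.5, 57.6 and 47.9 CPM and inputs 76.3, 65.9 and 70.2 CPM. The log2 fold change over monosome was 3.64 (SE 0.184) in LoF and 3.65 (SE 0.182) in T532M controls. Robo2 had 3.53 and 3.70, Robo4, known from endothelium, 2.73 and 2.97, and Robo3, which in the spinal cord governs midline crossing, 1.37 and 1.24, each for LoF and T532M controls. Slit1, a ligand, had 237, 190 and 276 CPM in LoF control polysomes against 22.81, 26.86 and 23.02 CPM in monosomes, and a fold change of 3.27 in LoF and 3.20 in T532M controls. Slit2 had 2.67 and 2.74 and Slit3 2.85 and 2.92.

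Netrins did not move as a group, while their receptors did in the main. Ntn1, the secreted netrin that attracts axons through Dcc, was higher in the polysome with a log2 fold change of 3.03 (SE 0.374) in LoF and 3.24 (SE 0.366) in T532M controls. Ntn4, a netrin of basement membranes, was lower at -0.66 and -0.62. Ntn3 did not pass, at -0.02 and 0.11. Dcc, the netrin receptor, spans 1097.4 kb of chromosome 18 (71253634 to 72351069, minus strand). It had 1274, 1021 and 1436 CPM in LoF control polysomes, 171, 194 and 181 CPM in monosomes and 35.4, 19.8 and 20.9 CPM in inputs. Its polysome values thus lay above all monosome values, and those above all inputs. The log2 fold change was 2.77 over monosome and 5.62 over input in LoF controls, and 2.996 and 6.26 in T532M controls. Unc5b, Unc5c and Unc5d, the repulsive netrin receptors, were also higher over monosome in both crosses. Unc5a was at -0.37 in both crosses, which passed in LoF (adjusted p = 0.0192) and did not in T532M controls (adjusted p = 0.1, edgeR). Against input Unc5a was lower in both crosses, at -0.74 and -0.97.

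**Figure D2:**
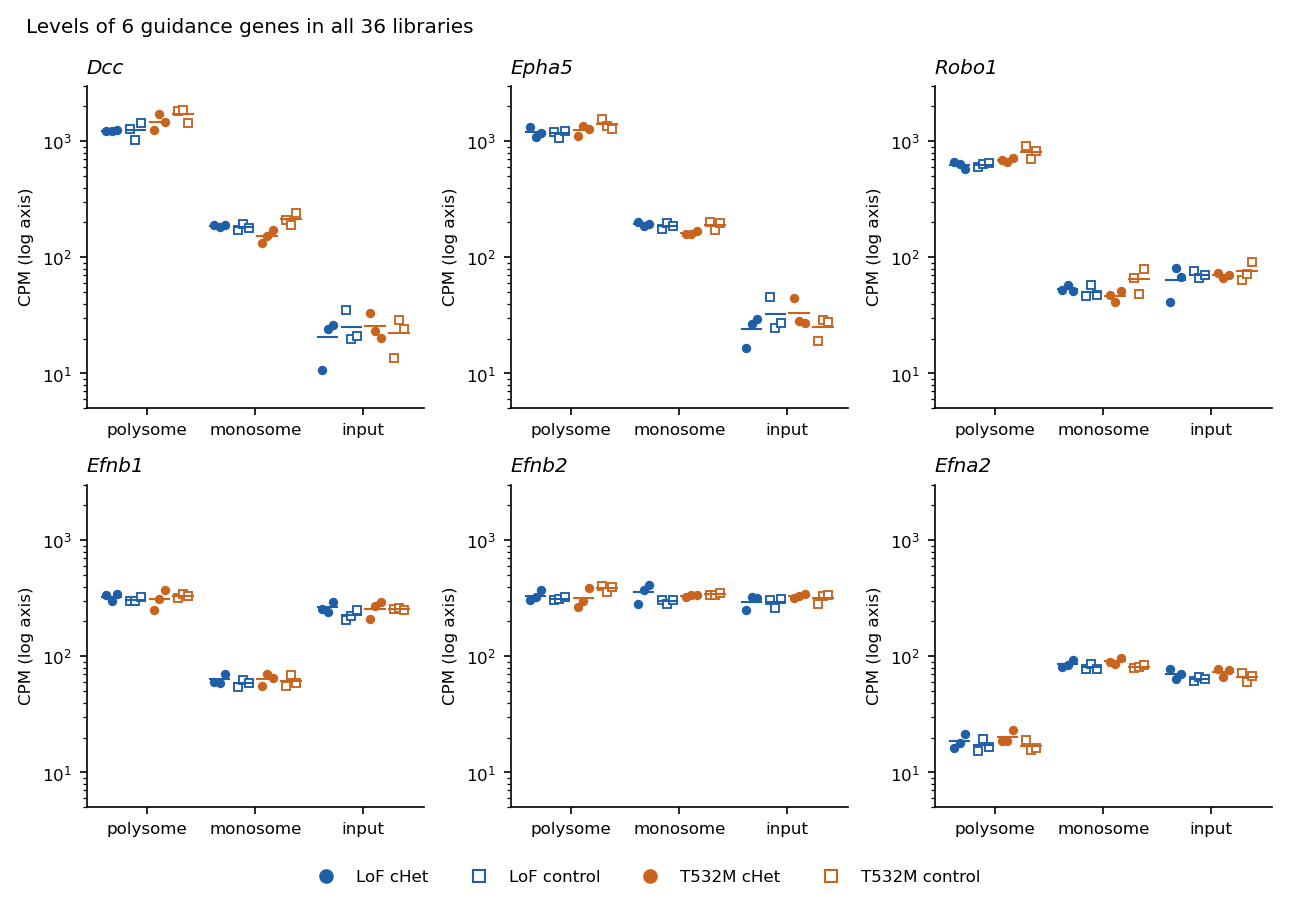
CPM (log axis, the same in all panels) of Dcc, Epha5, Robo1, Efnb1, Efnb2 and Efna2 in the polysome, monosome and input libraries, with filled circles for cHet, open squares for controls, blue for LoF and orange for T532M; short lines are means of 3 pools. Dcc and Epha5 are highest in the polysome and lowest in the input, Efnb1 is lowest in the monosome, Efnb2 is level across fractions and Efna2 is lowest in the polysome.

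Most Eph receptors were higher in the polysome, and their ephrin ligands were divided. All 5 EphB receptors were higher in the polysome in both crosses, from 1.37 (Ephb4) to 2.77 (Ephb3) in LoF controls and from 1.32 to 2.75 in T532M controls, with Ephb2 at 2.30 and 2.34. Of the EphA receptors 7 of 9 tested were higher in LoF and 7 of 8 in T532M controls. Epha5 had 1211, 1073 and 1230 CPM in LoF control polysomes, 174.8, 197.5 and 187.6 CPM in monosomes and 46.0, 24.9 and 27.1 CPM in inputs. Epha4, a receptor for both ephrin classes, had 1640, 1319 and 1865 CPM in those polysomes against 241.5, 290.4 and 257.3 CPM in monosomes. Its log2 fold change was 2.61 in LoF and 2.91 in T532M controls, and that of Epha2 2.67 and 2.76. Epha10, at under 1 CPM in every library, was the lowest receptor at -0.98 and -0.80 and did not pass (SE 0.644 and 0.609).

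Of the 5 ephrin-A genes 4 were lower in the polysome in both crosses and Efna5 was higher. Efna2 (chromosome 10, 80179482 to 80190010, plus strand) had 15.4, 19.4 and 16.5 CPM in LoF control polysomes. It had 77.3, 85.6 and 78.5 CPM in monosomes and 60.9, 66.1 and 63.5 CPM in inputs, so every polysome value lay below every value of the other fractions. The fold change over monosome was -2.23 (SE 0.121) in LoF and -2.26 (SE 0.116) in T532M controls. Efna3 was at -1.88 and -1.89, Efna4 at -1.41 and -1.49 and Efna1 at -1.08 and -1.10, each for LoF and T532M controls. Efna5, a ligand known from axon mapping, had 0.95 (SE 0.176) and 0.99 (SE 0.212). Under total read pair scaling the value of Efna5 was 0.14 and 0.03 and did not pass. Among ephrin-Bs, Efnb1 rose by 2.38 and 2.44 over monosome, while Efnb2 (0.07 and 0.17) and Efnb3 (-0.09 and -0.20) did not pass. Efnb1 had 301, 300 and 325 CPM in LoF control polysomes, 55.0, 63.1 and 59.4 CPM in monosomes and 206.6, 224.4 and 249.6 CPM in inputs. Efnb2 had 304.8, 314.7 and 325.7 CPM in the polysomes against 304, 285.6 and 309.3 CPM in the monosomes, and these overlap.

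The comparison against input gave these values. In LoF and T532M controls Sema3d stood at 5.27 and 6.44 and Sema5a at 3.89 and 4.41. Sema3d had only 0.42, 0.16 and 0.05 CPM in LoF control inputs and 0.02, 0.19 and 0 CPM in T532M control inputs. The size of its fold change over input is therefore uncertain. Nrp1 was at 3.81 and 4.20, Nrp2 at 2.76 and 2.95, Plxna2 at 3.30 and 3.65 and Plxna4 at 3.36 and 3.63, all higher in the polysome. Robo2 had 4.32 and 4.90, Robo1 3.15 and 3.43, Slit2 3.45 and 3.86 and Epha5 5.17 and 5.80. The values were smaller for Ntn1, at 1.22 and 1.16, Ephb3, at 1.52 and 1.69, and Efna5, at 1.41 and 1.44. Lower in the polysome were Sema4g at -0.56 and -0.67, Sema6b at -0.53 and -0.78, and Efnb3 at -0.99 and -1.15, together with Unc5a and 4 of 5 ephrin-As, whose lowest value was -2.03. Sema3f, Ntn3, Ntn4, Epha8, Epha10 and Ephb6 did not pass in either cross. Efnb1 was at 0.44 and 0.37 and Plxnd1 at 0.83 and 0.63, calls whose sign turns under total scaling, to -0.41 and -0.56 for Efnb1 and to -0.03 and -0.31 for Plxnd1. Efnb2, Ephb4, Ephb6 and Sema4d also turned negative in both crosses, Sema6c in LoF and Sema3b and Sema4f in T532M controls.

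Values of the crosses can be set side by side because their controls share no library. Across the 66 members tested in both, the polysome over monosome fold changes had a Pearson r of 0.99 and a Spearman rho of 0.99, a description across genes that share libraries and lysates. The median difference between crosses was 0.09 on the log2 scale, and the largest was 0.96 for Epha6. A test of the difference called 0 of 67 members (edgeR; 0.00523% of all genes), with 0 at an unadjusted p under 0.05 (2.36% of all genes) and 0 by DESeq2. The members with the smallest p were Epha6 (0.96, SE 0.504), Sema3b (0.77) and Sema3f (0.29), each at an adjusted p of 1 (edgeR). A value that misses the threshold does not show that the control sets were equal.

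Guidance mRNAs with longer coding regions lay further toward the polysome. Over members the Spearman rho of coding length with the polysome over monosome fold change was 0.45 in LoF controls (n = 67), against 0.63 over 14482 coding genes. Coding length did not stand out among members, where rho was 0.53 for mRNA length and 0.46 for gene span (0.48 and 0.34 over the coding genes). The 5 members with coding regions under 1000 nt, the ephrin-As, had a median of -1.41, close to -1.35 for all 4477 coding genes of that length. Efna5, which shares a coding length of 615 to 690 nt with the other ephrin-As, stood at 0.95. From 1000 to below 2000 nt the 7 members had a median of 0.07, with Ntn1 at 3.03 and Efnb1 at 2.38. From 2000 to below 3000 nt the 31 members had a median of 2.24, against 1.24 for all genes of that length. At 4000 nt or more all 15 members tested were higher, with a median of 2.67 against 1.83, and from 3000 to below 4000 nt all 9 were (2.17 against 1.65). In T532M controls the 9 had 1.57 against 1.67. Against input the LoF medians were close to those of all genes of like length, 1.52 against 1.51, 1.99 against 2.08 and 2.67 against 2.52 in the 3 classes from 2000 nt upward.

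Base composition went with the comparison against input. The rho of mRNA GC content with polysome over input was -0.68 over members in LoF controls and -0.26 over all coding genes, and against monosome -0.36 and 0.01. Members whose span exceeded the median of 46307 bp had a median polysome over input fold change of 3.12, and the shorter ones 0.44. Composition of the input libraries differed between pools, as given above, and its part in these values was not tested.

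**Figure D3:**
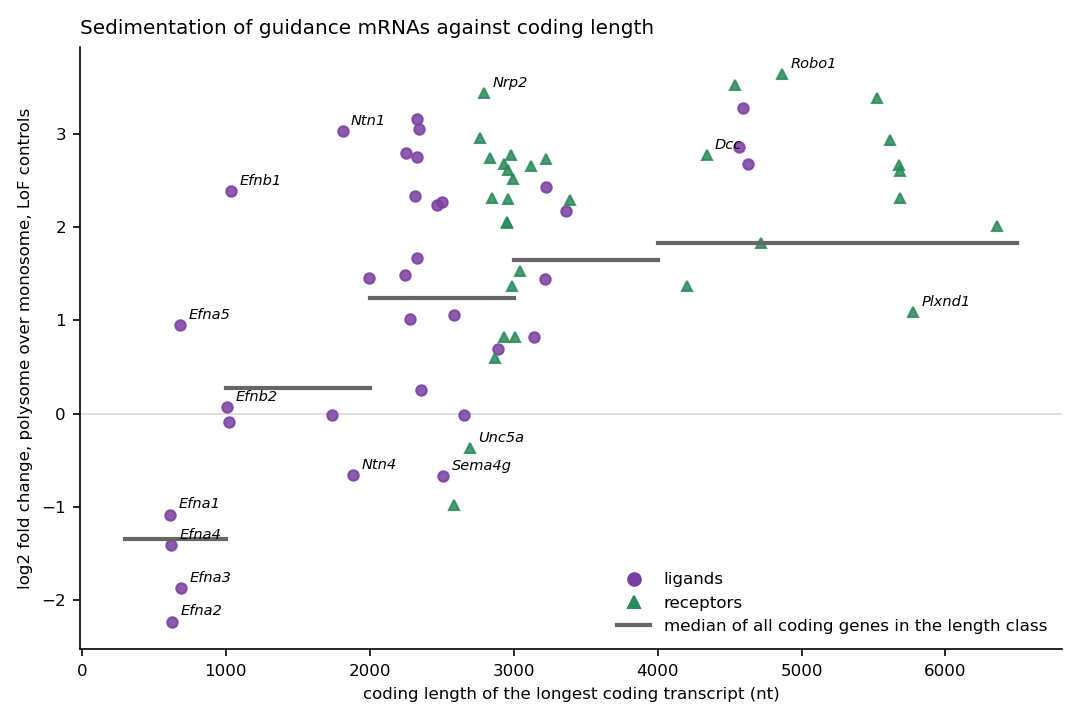
Each point is a guidance gene, with coding length in nt on the x axis and log2 fold change of polysome over monosome in LoF controls on the y axis; circles are ligands, triangles receptors, and grey bars the median of all coding genes in 5 length classes. Ephrin-As sit at the short end near the grey bar except Efna5 at 0.95, and Ntn1 and Efnb1 lie far above the bar of their class.

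Other genes of the pathway were mostly higher in the polysome of the same controls. Of 50 intracellular effectors, 38 were higher and 7 lower in the polysome over the monosome in LoF controls, and 37 and 8 in T532M controls. Of 38 tested partners (adhesion molecules, co-receptors and neighbouring systems), 30 were higher and 5 lower, and 29 and 4. Of all genes 36.4% were higher and 44.9% lower in LoF and 36% and 43.9% in T532M controls. In LoF controls the largest rises were those of Crmp1 (4.07) and Dpysl5 (3.95), collapsin response mediator proteins that act below semaphorin receptors, and of the adhesion molecules Cntn2 (4.16) and L1cam (4.05). The largest falls were Evl (-2.67), which promotes actin filament growth, Chn1 (-2.10), a Rac inactivator used by Eph receptors, Ryk (-2.31), a Wnt receptor, and the chemokine Cxcl12 (-1.43). In T532M controls Crmp1 (4.17), Dpysl4 (4.03), Cntn2 (4.11) and Dag1 (4.06) led, and Evl (-2.62), Chn1 (-2.05), Ryk (-2.25) and Cxcl12 (-1.71) fell most. Against input, effectors counted 35 higher and 12 lower in both crosses, where 36.5% and 36.6% of all genes were higher and 42.8% and 42.4% lower. Partners counted 29 and 6 in LoF and 28 and 6 in T532M controls, with Chl1 (5.25 and 6.02) and Ptprd (4.23 and 4.59) highest and Cxcl12 (-1.76 and -1.91) and the growth cone protein Gap43 (-1.49 and -1.50) lowest.

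The comparison of cHet with control asked whether guidance transcripts differ in level, or in their place on the gradient, when 1 Ddx3x copy is altered. No member passed in any of the 6 within-fraction comparisons (edgeR). In the LoF cross 0 of 67 members passed in input, monosome and polysome, where 0%, 0.0108% and 0% of all genes did. In the T532M cross 0 of 66 passed, where 0.00548%, 1.03% and 0% of all genes did. Members at an unadjusted p under 0.05 numbered 8, 5 and 0 in LoF input, monosome and polysome (11.9%, 7.46% and 0%, against 10.8%, 4.2% and 3.23% of all genes). In T532M they numbered 8, 12 and 7 (12.1%, 18.2% and 10.6%, against 10.7%, 11.8% and 7.92%). Same-numbered cHet and control libraries of the T532M monosome deviated together (r = 0.2, 0.29 and 0.27), but the labels do not pair genotypes by number. Over both crosses and all fractions such pairs had r from -0.69 to 0.54. With the replicate number as a block in the T532M monosome alone 9 members passed, as did 876 of all genes. These were Plxnd1, Unc5a and Slit2, higher in cHet, and Nrp1, Sema3a, Sema7a, Robo1, Robo2 and Dcc, lower in cHet, with adjusted p from 0.00619 (Plxnd1) to 0.0475 (Sema7a). Without the block 2 members passed in that fraction alone, Plxnd1 and Nrp1. DESeq2 called 1 member, Plxnd1 in the T532M monosome, and 0 in the other 5. Counts over all genes are not given for the fit without the block or for DESeq2, so these calls do not set the members apart. No member in the authors' deposited tables had an adjusted p under 0.05 in any of the 6 columns, and the lowest there was 0.0506 for Sema3a in LoF input. Their monosome and polysome columns did not always follow the differences within those fractions. For T532M Sema3c their monosome column gave a log2 fold change of -0.57. Its cHet monosomes had 24.63, 21.8 and 25.02 CPM, and controls 22.35, 13.49 and 20.95 CPM. Those columns may hold changes relative to input, so only the input columns can be set beside the tests here. Differences in bulk tissue can reflect fewer cells of a type or less RNA per cell, which cannot be told apart here.

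**Figure D4:**
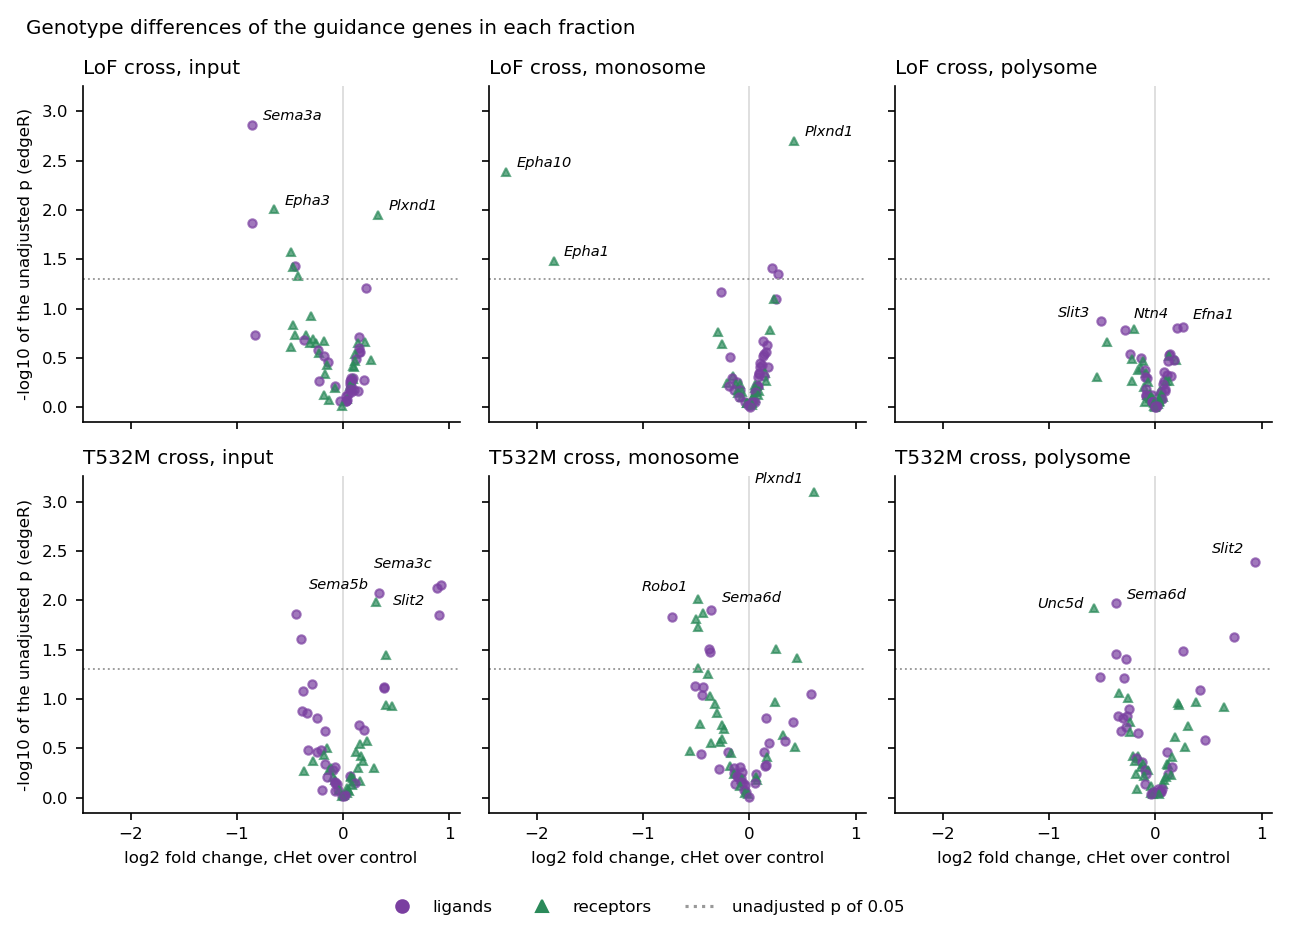
For each cross and fraction, guidance genes are placed by log2 fold change of cHet over control (x axis) and by -log10 of the unadjusted p (y axis, edgeR); circles are ligands, triangles receptors, and the 3 genes with the smallest p are named. No gene passed after adjustment, and Plxnd1 in the T532M monosome, at an unadjusted p of 0.00079, is the highest point.

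Plxnd1 was the member nearest the threshold, and its cHet monosome values lay above the control values in both crosses. In the T532M cross Plxnd1 (chromosome 6, 115954811 to 115995005, minus strand) had 176.6, 133.7 and 168.4 CPM in cHet monosomes, against 105.3, 92.5 and 115.6 CPM in control monosomes. In the LoF cross it had 163.4, 130 and 145.5 CPM in cHet against 102.7, 117.9 and 107.1 CPM in control monosomes. In both crosses the 3 cHet pools lay above the 3 controls. Values apart in this way were found for 21.6% of all genes in the T532M and 10.5% in the LoF monosome. The log2 fold change was 0.61 (SE 0.151, adjusted p = 0.0618, edgeR) in T532M and 0.42 (SE 0.117, adjusted p = 1) in LoF. In DESeq2 the T532M value was 0.59 with an adjusted p of 0.0108, and it passed without the low-count filter too (adjusted p = 0.0342, edgeR). How many of all genes those fits called is not given, so these passes do not set Plxnd1 apart. Leaving out single pools gave 0.53 to 0.73 with adjusted p from 0.0991 to 0.307. LoF cHet inputs lay above controls as well, at 183, 138.5 and 170.5 CPM against 122.9, 134.6 and 133.9 CPM in controls (0.33, adjusted p = 0.293), whereas T532M inputs overlapped. Polysome values overlapped in both crosses. Endothelial markers, listed because Plxnd1 is known from vessels, had negative fold changes for 8 of 10 genes in LoF and positive ones for 7 of 10 in T532M monosomes. They summed to 48.5 to 69 CPM in LoF cHet and 62.1 to 71.9 CPM in LoF control monosomes, and to 39.2 to 60.2 CPM in T532M cHet and 36.9 to 49.6 CPM in T532M control monosomes. Their part in the Plxnd1 difference was not tested.

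In the monosome of the T532M cross, most members had lower fitted levels in cHet. Of 66 members 47 had a negative fold change (71.2%, against 57.2% of all genes), with a median of -0.11 against -0.05 for all genes. Without overlap 12 members lay below and 6 above, 27.3% of the members against 21.6% of all genes. The rho of mRNA GC content with the fold change was 0.45 over members and 0.13 over all coding genes, and 6 of 8 dorsal cortex markers had negative fold changes (median -0.17). So did 7 of 10 ventral forebrain and interneuron markers (median -0.18), 4 of 5 pericyte and 5 of 7 microglia markers. In the remaining marker lists most genes had positive fold changes. The part of base composition or of any cell type in these values was not tested. Robo1 had 47.7, 41.4 and 50.9 CPM in cHet against 67.1, 48.4 and 79.5 CPM in control monosomes (-0.48, SE 0.165, adjusted p = 0.236, edgeR), and these overlap. Sema6d, a transmembrane semaphorin, had 109, 122 and 134 CPM in cHet against 166, 138 and 163 CPM in controls (-0.36, SE 0.129, adjusted p = 0.259), without overlap. Dcc had 132.5, 153.1 and 173.9 CPM in cHet against 209.8, 189.6 and 243.3 CPM in controls (-0.48, unadjusted p = 0.0489). In each of these 3 genes control pool 2 lay nearest to the cHet pools. That pool had 115.8 CPM of summed meninges markers in input, against 14.3 and 29.7 CPM in control pools 1 and 3 and 52.1 to 109.5 CPM in cHet inputs. All 9 tested meninges markers had positive fold changes in T532M cHet in each fraction, as did all 10 choroid plexus and hem markers in monosome and input, and their part in these differences was not tested. Without control pool 2, Robo1 (-0.65, adjusted p = 0.0294, edgeR) and Sema4g (-0.46, adjusted p = 0.0465) passed in the monosome, and 636 of all genes did, against 188 with it.

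A few other pathway genes passed in that comparison. In T532M cHet monosomes 3 of 50 effectors were higher, and 1 of 38 partners, with 0 lower, where 1.03% of all genes passed in either direction. Nck2, an adaptor below ephrin-B and Robo receptors, averaged 75.8 ± 5.21 CPM in cHet and 43.6 ± 1.93 CPM in control monosomes (SD, n = 3; log2 fold change 0.80, SE 0.105, adjusted p = 0.00199, edgeR). Farp1, which binds class A plexins, averaged 120.9 ± 2.56 and 85.4 ± 8.88 CPM in cHet and control (adjusted p = 0.0276). Rgma, a repulsive ligand of neogenin, averaged 152.7 ± 7.74 and 105.9 ± 15.1 CPM (adjusted p = 0.0384), and Limk1, a kinase that inactivates cofilin, 156.5 ± 10.3 and 110.7 ± 11.2 CPM (adjusted p = 0.0386), each in cHet and control. Limk1 is named because the count is small, after its value was seen. Farp1 and Rgma lost their calls in most single-pool omissions. Nck2 did so without control pool 3, at an adjusted p of 0.0501. No effector or partner passed in the other 5 within-fraction comparisons.

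In LoF input Sema3a, Epha3 and Plxnd1 had the smallest p, and none passed. Sema3a had 2.21, 4.21 and 3.35 CPM in LoF cHet inputs against 8.15, 4.99 and 4.53 CPM in controls, without overlap (-0.86, SE 0.228, adjusted p = 0.24, edgeR). Epha3, an Eph receptor, had 16.8, 33.8 and 28.7 CPM in cHet against 60.5, 30.9 and 33.1 CPM in controls (-0.65, adjusted p = 0.286). Sema3c, another class 3 semaphorin, had 3.04, 7.597 and 4.48 CPM in cHet against 15.2, 5.46 and 6.74 CPM in controls. For these 3 genes cHet pool 1 was lowest and control pool 1 highest. The same pools had the lowest and highest base composition index of the LoF inputs, -0.72 and 0.58, and the rho of mRNA GC content with the genotype fold change was 0.74 over members and 0.58 over all coding genes. In LoF monosome and polysome that rho was 0.11 and -0.06 over members. Without the 3 LoF pools with most Ttr, among them both pools 1, an omission chosen after seeing the data that leaves 1 control, Sema3a was at -0.39 and Epha3 at 0.03. That omission drops the lowest cHet and the highest control value of both genes, so a weaker effect follows from the choice of pools. The part of base composition in these differences was not tested. In the polysome Sema3a had 192, 154 and 159 CPM in cHet against 151, 146 and 178 CPM in controls, which overlap.

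Sema3c, Slit2 and Sema5b had the smallest p in T532M input, and none passed. Slit2 had 18.3, 19.9 and 12.8 CPM in T532M cHet inputs against 7.15, 12.1 and 8.34 CPM in controls (0.89, SE 0.294, adjusted p = 0.331, edgeR). Sema3c had 19.1, 8.75 and 8.43 CPM in cHet against 3.73, 8.02 and 7.37 CPM in controls (0.92, SE 0.303, adjusted p = 0.331). Both sets lay apart, as did 13.3% of all genes in that comparison. Without cHet pool 1, Sema3c was at 0.43. That pool had 251.5 CPM of choroid plexus and hem markers in input, against 27.3 and 11.4 CPM in the other cHet pools and 16.3 to 18.6 CPM in controls. Sema5b, a transmembrane semaphorin, had 59.3, 69.0 and 75.3 CPM in cHet inputs against 56.6, 50.2 and 54.4 CPM in controls (0.34, adjusted p = 0.339). In the polysome Slit2 had 276, 329 and 163 CPM in T532M cHet against 146, 182 and 73.4 CPM in controls, which overlap (0.94, SE 0.284, adjusted p = 0.501). Slit3 had 30.1, 24.6 and 12.0 CPM in cHet against 17.1, 15.4 and 7.47 CPM in control polysomes, and these overlap too. Pool 3 was lowest in each of these groups for both Slits. Its meninges markers summed to 309.3 CPM in the cHet polysome, the lowest of the 3 cHet pools, and to 139.7 CPM in the control polysome, where the other pools had 95.1 and 817 CPM.

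**Figure D5:**
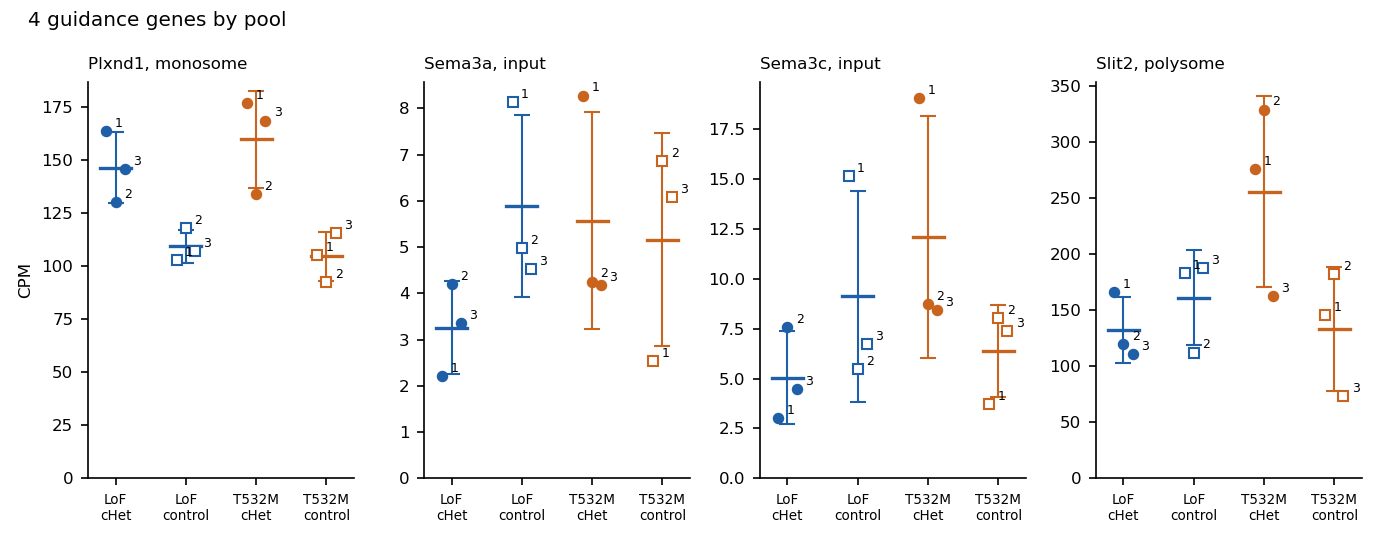
CPM (linear axis from 0) of Plxnd1 in the monosome, Sema3a and Sema3c in input and Slit2 in the polysome, for LoF cHet, LoF control, T532M cHet and T532M control; points are pools with their number, long bars means and whiskers SD (n = 3). Plxnd1 cHet pools lie above their controls in both crosses, and LoF cHet pool 1 and LoF control pool 1 are the lowest and highest LoF inputs for Sema3a and Sema3c.

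No other member with one of the 3 smallest p passed. In LoF cHet polysomes Slit3 was at -0.51, Efna1 at 0.26 and Ntn4 at 0.20 (all adjusted p = 1, edgeR), with Slit3 values of 24.3, 12.1 and 10.5 CPM in cHet against 28.1, 15.3 and 23.5 CPM in control. In LoF monosomes Epha10 was at -2.29 and Epha1 at -1.84 (adjusted p = 1). Both lay below controls without overlap but at under 0.5 CPM in every LoF monosome library. In T532M polysomes Sema6d had 319, 360 and 396 CPM in cHet against 523, 417 and 448 CPM in controls, without overlap (-0.37, adjusted p = 0.521). Unc5d, a netrin receptor of upper-layer precursors, had 67.9, 76.7 and 90.5 CPM in cHet against 134, 85.1 and 131 CPM in controls, which overlap (-0.58, adjusted p = 0.534). Over all members the medians were 0.03, 0.05 and -0.01 in LoF and 0.01, -0.11 and -0.04 in T532M input, monosome and polysome. The members' values lay apart in 6, 8 and 1 cases in LoF and 5, 18 and 4 in T532M. Over all genes 11.3%, 10.5% and 6.71% did in LoF and 13.3%, 21.6% and 9.63% in T532M.

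Shifts between fractions were tested as the genotype change of polysome over monosome and of polysome over input. In LoF 0 of 67 members passed over monosome and 0 over input, with 0% and 0.0108% of all genes. Unadjusted p under 0.05 was reached by 0 and 2 of them (3.02% and 6.87% of all genes). In T532M 0 of 66 passed in either, with 0.0603% and 0% of all genes, and 1 and 5 reached an unadjusted p under 0.05 (6.85% and 6.1% of all genes). DESeq2 also called 0 members in all 4. The smallest p over input in LoF were Sema3a (0.95, SE 0.304, adjusted p = 0.715), Epha3 (0.68) and Sema3c (0.77). Over monosome the members nearest the threshold in LoF were Sema4d, Plxnd1 and Epha1, each at an adjusted p of 1. In T532M they were Ephb2 (-0.32, SE 0.15), Plxnd1 and Unc5a over monosome (lowest adjusted p = 0.724), and Ephb2 (-0.37), Unc5d (-0.72) and Sema5a (-0.69) over input (lowest adjusted p = 0.793). Among the other pathway genes Nck2 passed over monosome in T532M (-0.84, SE 0.149, adjusted p = 0.0486), a call lost in each single-pool omission.

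The LoF and T532M effects were also compared directly. The difference passed for 0 of 67 members in input, monosome and polysome, where 0.0105%, 0% and 0% of all genes did, and 13, 5 and 5 members had an unadjusted p under 0.05 (19.4%, 7.46% and 7.46%, against 15.9%, 6.69% and 5.59% of all genes). In input Sema3c differed by -1.80 (SE 0.473, adjusted p = 0.0659, edgeR), Slit2 by -1.36 (SE 0.383, adjusted p = 0.0762) and Epha3 by -1.07 (SE 0.357, adjusted p = 0.108), with the LoF effect below the T532M effect. DESeq2 called Sema3c (adjusted p = 0.0158) and Slit2 (adjusted p = 0.0317) in input and 0 members in monosome and polysome. In the monosome the smallest p were Sema4g (0.49), Sema6d (0.52) and Sema7a (0.50), and in the polysome Slit2 (-1.21, SE 0.368, adjusted p = 0.571), Slit3 (-1.24) and Sema6d (0.48). Without the pools with most Ttr, an omission made after seeing the data that leaves 1 LoF control, the input differences were -0.28 for Sema3c, -0.92 for Slit2 and 0.03 for Epha3. For Sema3c and Epha3 the omission drops the lowest LoF cHet and the highest LoF control input, so a weaker LoF effect follows from the choice of pools. The rule was applied to both crosses, so the T532M effect can change too. T532M cHet pool 1 had the most choroid plexus and hem markers of all inputs (251.5 CPM). In input all 10 of these markers had negative fold changes in LoF cHet (median -1.28) and positive ones in T532M cHet (median 2.61). Their part in the differences between crosses was not tested.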

How the data were processed

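RNA from input, monosome and polysome of embryonic mouse cortex was sequenced in 36 libraries. Whole-number counts of read pairs per gene were deposited by the authors. Per the file headers they were made with featureCounts over whole gene spans, introns included, strand setting 2, with GENCODE M25 on GRCm38. STAR 2.7.11a and DESeq2 1.34.0 were used as well, per the submitters' processing notes, which also list Subread 2.0.3. The deposited tables of the authors also hold log2 fold changes, p-values and normalized signal, and of these only adjusted p-values and a single log2 fold change are quoted.

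Counts were tested as deposited with edgeR 4.0.16 in R 4.3.3 (quasi-likelihood, TMM, filterByExpr, Benjamini-Hochberg over all genes tested). The LoF and the T532M fits had 18 libraries and 6 groups each, and differences between crosses came from a fit of all 36. Libraries held 36999365 to 57935512 read pairs, and 3 pools a group set the precision. Alternatives were DESeq2 1.42.0, RLE or total scaling, no filter, each pool left out, single fractions, and lysate or replicate blocks. Lengths and GC content came from GENCODE M21 on the same build. The members and all lists were chosen with earlier results of these data known. Genes were named by role, level, fold or smallest p in each comparison. Single effectors against input are not reported here. The fit was tested on simulated data for the LoF monosome comparison, where it recovered 66 of 100 genes changed by a log2 fold of 1 in a fit of 18301 genes. The lysate is shared by fractions of a pool, per the labels' protocols. Deviations of polysome and monosome libraries of a pool correlated with r from -0.11 to 0.63 over 10517 genes, above 0.1 in 9 of 12 pools.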

Additional observations from a re-analysis of the deposited data

How the results depend on the processing

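In the genotype comparisons, where edgeR called 0 members, dropping the low-count filter called 4 members in LoF input, 1 in LoF change of polysome over input, 2 in T532M input, 1 in T532M monosome, 1 in T532M polysome, 6 in the input difference between crosses and 1 in the polysome difference. DESeq2 called 1 member in T532M monosome and 2 in the input difference between crosses, and total scaling 2 in that difference. Fitting the T532M monosome alone called 2 members, and with the replicate number as a block 9. In the labels pool numbers do not pair genotypes. Same-numbered cHet and control libraries correlated with r from -0.69 to 0.54, over 0.1 in 7 of 18, among them all 3 pairs of the T532M monosome. In the other 5 comparisons within a fraction the replicate block called 0 members. Leaving out single pools gave 0 to 1 members in LoF monosome (Ephb1, without cHet pool 1), 0 to 4 in T532M input, 0 to 2 in T532M monosome, 0 to 1 in T532M polysome and 0 to 8 in the input difference between crosses, with the highest T532M and cross counts without T532M control pool 2. Without the LoF pools with most Ttr, chosen after seeing the data, 1 control is left, which gives no spread within that group. No count of members is therefore given for that omission. For most of the alternative fits above the share of all genes called is not given, so the counts do not set the members apart from other genes. The cause of the changes in count was not tested.

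Total scaling put 13 members lower over monosome in LoF and 13 in T532M controls, and 18 and 18 over input. It turned Sema3f to -0.56 and Efnb2 to -0.75 over monosome in LoF, Ntn3 to -0.86 and Efnb2 to -0.81 in T532M controls. Over input it gave Plxnd1 -0.025 and -0.31, Ephb6 -0.59 and -0.78, Efnb2 -0.74 and -0.64 and Efnb1 -0.41 and -0.56 for LoF and T532M. Values near 0 also changed sign. Ntn3 over monosome in LoF controls was 0.065 with RLE scaling, 0.061 with DESeq2, -0.073 to 0.079 with single pools left out, 0.131 without the most-Ttr pools and 0.046 with the lysate block. Sema3f in T532M controls was 0.029 with RLE scaling, 0.021 with DESeq2 and -0.058 to 0.021 with single pools left out. With single pools left out Epha10 over input in T532M controls was -1.197 to 0.037, and Ntn4 in LoF polysome -0.001 to 0.334. Without the most-Ttr pools Efnb3 over monosome in LoF controls was 0.14, Epha3 0.029 in LoF input and 0.026 in the cross difference, and the LoF changes of polysome over input were -0.16 for Epha3 and -0.22 for Sema3c. The lysate block moved no member count between fractions by more than 1.5 times.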
